A study of Homo sapiens with 48 samples.

Results

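The nuclear cap-binding complex and its direct partners are described here through 5 genes, NCBP1, NCBP2, NCBP3, SRRT and PHAX, taken by matching Ensembl identifiers to gene symbols. All 5 were found among the 14685 genes counted in 48 libraries. The cells were HEK293T, a human embryonic kidney line, which the methods describe as transfected with a plasmid that makes NCBP1 fused to a HaloTag. T-REX is a method in which the HaloTag binds a photocaged precursor of 4-hydroxynonenal (HNE, a lipid-derived electrophile), called Ht-PreHNE, and light then releases HNE beside the tagged protein. RNA was collected at 3, 6 and 12 h in 4 arms with 4 libraries each. The T-REX arm carries the label post reaction. The 3 control arms are labelled control UV (light alone), control Pre (probe alone, Ht-PreHNE without light) and control DMSO (solvent only, no light). The study's own text lists probe and light together for the light control, so which reagent that arm lacked could not be settled here. The replicates are stated to be independent biological replicates.

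Capped RNA is handled in the nucleus by a small set of proteins that bind the methylated guanosine at the start of each RNA polymerase II transcript. NCBP2 holds the cap itself, and NCBP1 is the large scaffold without which NCBP2 binds the cap poorly. The complex passes transcripts on to splicing, to 3′ end processing, to export and to decay, and its partners set which of these routes is taken: PHAX is the adaptor for export of small nuclear RNA, SRRT (also called ARS2) joins the complex to processing and decay machines, and NCBP3 is an alternative cap-binding subunit that also joins NCBP1.

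NCBP1 lies on chromosome 9, NCBP2 on chromosome 3, NCBP3 on chromosome 17, SRRT on chromosome 7 and PHAX on chromosome 5 in the GENCODE 29 annotation. The coding sequence of NCBP1 in that annotation has 790 codons, of which 19 are cysteine codons. The annotated transcript that holds it has 23 exons. The window below is shown because it holds C436, the cysteine through which the study links modification of NCBP1 to translation. The study describes other cysteines of NCBP1 as reacting with HNE too. Its codon, in capitals, lies in exon 14 of the annotated transcript, on the plus strand.

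NCBP1 coding bases 1276 to 1338: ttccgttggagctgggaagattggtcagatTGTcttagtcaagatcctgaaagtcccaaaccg

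The deposited values are 1 count per gene and library. They do not read this codon, and they add the transcripts of the plasmid to those of the cell's own NCBP1 gene. Every NCBP1 level below is that sum, and the shares of the plasmid and of the gene cannot be told apart. No gene on the opposite strand of NCBP1 or NCBP2 (AL162385.2, NCBP2-AS1) was among the genes counted.

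Library totals ran from 23952455 to 37099535 counts. Of 4 markers of HEK293T, LIN28B was at 149 to 228 CPM (TMM-scaled counts relative to a library of 1e6) and NEFM at 21.6 to 47.8 CPM. LHX1 was low, at 0.739 to 3.20 CPM, and PAX2 was not listed. Of the markers of other cells, PTPRC, ALB and PECAM1 were not listed and COL1A1 was at 2.11 to 6.23 CPM, a range that overlaps that of LHX1. Reads of 16 mitochondrial genes took 7.38 to 9.80% of a library. Within a group, libraries differed by more than counting noise in all 72 replicate pairs.

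NCBP1 stood far above its partners. Its level was between 30797 and 92201 CPM, with a median of 56218 CPM over 48 libraries, and it ranked 1 or 2 among genes in each library, at 3.09 to 8.99% of all counts. The partners had medians of 30.2 CPM (NCBP2), 138 CPM (NCBP3), 102 CPM (SRRT) and 61.5 CPM (PHAX). Divided by the length of the merged exons, the median level was 10133 CPM per kilobase for NCBP1, 5.91 for NCBP2, 9.39 for NCBP3, 21.1 for SRRT and 14.2 for PHAX. Per kilobase of merged exon, NCBP1 was therefore 1716 times NCBP2, the subunit it pairs with, and 480 times SRRT, the highest partner on that scale. The plasmid carries the coding sequence of NCBP1, so the levels were also divided by coding length. The medians were then 23721 CPM per coding kilobase for NCBP1, 64.5 for NCBP2, 74.3 for NCBP3, 39.0 for SRRT and 52.1 for PHAX. NCBP3 was the highest partner on that scale and SRRT the lowest, so the order of the partners depends on the length used. Counts behind the lowest partner value were 730 reads (NCBP2).

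The 5 genes also differed in how much replicates of a group varied. The standard deviation of the log2 level within groups was 0.20 for NCBP1, 0.17 for SRRT, 0.11 for PHAX, 0.10 for NCBP2 and 0.05 for NCBP3. The median of this value over the 10115 genes with a mean log2 CPM above 3 was 0.11. NCBP3 varied less than all but 0.534% of those genes, while 90.7% of them varied less than NCBP1 and 83.2% less than SRRT.

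The first comparison asks whether RNA of the complex changed when HNE was released at NCBP1. NCBP1, the scaffold and the protein carried by the plasmid, was the only one of the 5 genes with a call, and its level differed among the control arms as well. At 3 h the T-REX libraries held 92201, 76435, 79225 and 55598 CPM of NCBP1, a mean of 75865 ± 15157 (SD, n = 4). The light-alone libraries held 70875, 58593, 59919 and 56091 CPM, and the probe-alone libraries 63133, 66727, 69091 and 59399 CPM. The DMSO libraries held 52484, 46545, 61416 and 54943 CPM, with a mean of 53847 ± 6155 (SD, n = 4). Replicates 1 to 3 of T-REX were above every control library at 3 h, while replicate 4 was below all 4 probe-alone libraries and within the range of the DMSO arm.

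**Figure D1:**
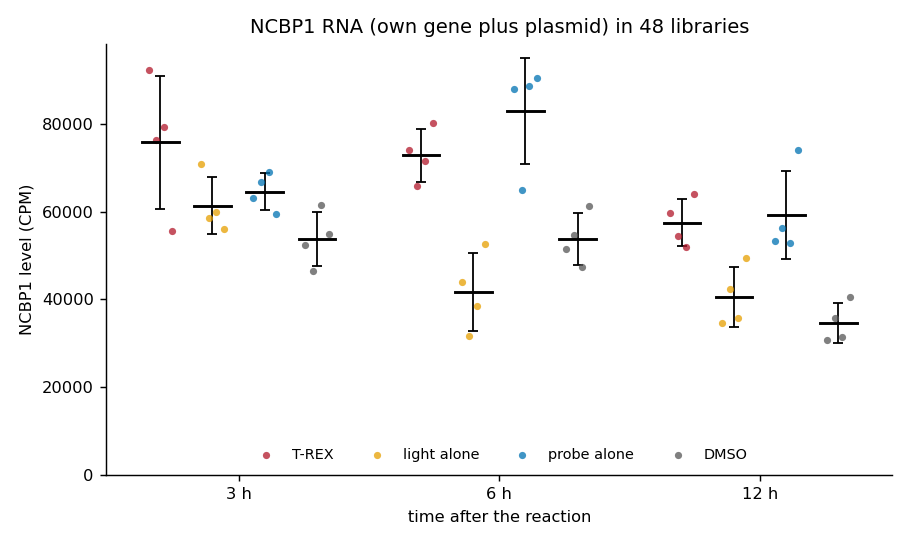
NCBP1 level in CPM on the vertical axis against time after the reaction, with 1 point for each library, a black bar for the mean of an arm and error bars for 1 SD (n = 4). The light-alone arm falls from a mean of 61370 CPM at 3 h to 41696 CPM at 6 h, while the probe-alone arm is highest at 6 h with 82943 CPM.

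Against DMSO the fitted change of NCBP1 at 3 h was 0.50 on the log2 scale (SE 0.12, 1.41-fold), with an adjusted p of 0.029 (quasi-likelihood test of edgeR, p-values adjusted by Benjamini-Hochberg across the 14685 genes). Genes at an adjusted p of 0.05 or less are referred to as called. In this comparison 5.99% of all genes were called. The change was 0.30 against light alone (95% interval 0.04 to 0.57, adjusted p 0.262) and 0.25 against probe alone (95% interval -0.02 to 0.51, adjusted p 0.308). Neither was called, in comparisons that called 0.197% and 1.05% of all genes. The DMSO call was lost when any of 5 of the 8 libraries compared was left out (T-REX replicates 2 and 3, DMSO replicates 1, 2 and 4), with adjusted p up to 0.0927. It was also lost when the 2 arms were fitted alone (adjusted p 0.122).

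At 6 h the order of the arms was different. T-REX held 73969, 65766, 71445 and 80149 CPM of NCBP1 (mean 72832 ± 5963, SD, n = 4). Light alone held 43881, 31603, 38573 and 52728 CPM, so that all 4 of its libraries were below all 4 of T-REX. Probe alone held 87925, 64957, 88530 and 90361 CPM. Thus 3 of its 4 libraries were above every T-REX library. DMSO held 51464, 54713, 47409 and 61381 CPM, all below T-REX and overlapping light alone. How many of all genes have groups that do not overlap was not counted for any comparison here, so such separations describe levels only.

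T-REX was 0.80 above light alone at 6 h (SE 0.14, 1.74-fold, adjusted p 0.0214), where 0.218% of all genes were called. It rested on 5 single libraries, T-REX replicates 1, 3 and 4 and light-alone replicates 1 and 3, and was not called without any 1 of them, with adjusted p up to 0.165. The change was 0.44 against DMSO (95% interval 0.15 to 0.73, adjusted p 0.175) and -0.19 against probe alone (95% interval -0.48 to 0.10, adjusted p 0.878). The shares of all genes called were 0.415% and 0.109%. The 6 h DMSO groups did not overlap although the difference was not called; it passed with a replicate term, with the deposited RUV factors, or with the 2 arms fitted alone.

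At 12 h the arms fell into an upper and a lower pair. T-REX held 59601, 54525, 51945 and 63933 CPM of NCBP1 (mean 57501 ± 5339, SD, n = 4), and probe alone 53415, 56345, 52800 and 74043 CPM. Light alone held 34589, 42442, 35677 and 49371 CPM. DMSO held 30797, 35789, 31383 and 40599 CPM, a mean of 34642 ± 4554 (SD, n = 4). Each T-REX and probe-alone library was above each light-alone and DMSO library. How often the groups of all genes separate in this way was not counted.

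The 12 h change against DMSO was 0.73 (SE 0.13, 1.66-fold, adjusted p 0.00252), in a comparison that called 10.9% of all genes. It was called without each of the 16 libraries in turn, with an adjusted p of at most 0.0195. Against light alone the change was 0.51 (95% interval 0.23 to 0.78, adjusted p 0.0678; 1.29% of all genes called). Against probe alone it was -0.04 (95% interval -0.32 to 0.23, adjusted p 0.942; 0.701% called). The 12 h light-alone difference passed once replicate 4 of light alone, or that of probe alone, was left out, these being the highest NCBP1 libraries of their arms.

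The control arms were compared with one another in the same fits, to give the background of the method. NCBP1 was called in 2 of 9 such comparisons. It was 0.99 lower in light alone than in probe alone at 6 h (log2FC -0.99, SE 0.14, adjusted p 0.0144; 0.0613% of all genes called), the largest of its 18 within-time differences. That call was lost without light-alone replicate 3 or probe-alone replicate 3 or 4 (adjusted p up to 0.102). NCBP1 was 0.77 higher in probe alone than in DMSO at 12 h (SE 0.13, 1.71-fold, adjusted p 0.00541; 5.11% called), which was called without each library in turn. T-REX and DMSO thus differed at 12 h by an amount close to that between probe alone and DMSO, and both differences use the same DMSO libraries.

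In the other 7 control comparisons NCBP1 was not called. At 3 h it differed by 0.19 between light alone and DMSO (95% interval -0.07 to 0.46), by 0.25 between probe alone and DMSO (-0.01 to 0.51) and by -0.06 between light and probe alone (-0.32 to 0.21). These comparisons called 0.00681%, 0.00681% and 0.232% of all genes. At 6 h the values were -0.37 for light alone (95% interval -0.65 to -0.08, 0.00681% of genes called) and 0.62 for probe alone (0.34 to 0.91, 0.0272% called) against DMSO. At 12 h they were 0.22 for light alone against DMSO (-0.05 to 0.50, 0.0136% called) and -0.55 for light against probe alone (-0.82 to -0.28, 0.415% called), the latter called without light-alone replicate 4 (adjusted p 0.0184). Intervals that leave out 0 here belong to single genes and are not adjusted for the number tested.

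By mean level the order at 3 h was T-REX, probe alone, light alone and DMSO, and no neighbours in it were called apart. At 6 h it was probe alone, T-REX, DMSO and light alone, and at 12 h probe alone, T-REX, light alone and DMSO. At those times, too, no neighbours were called apart, which does not show that they were equal. The ratio of the highest to the lowest arm mean was 1.41, 1.99 and 1.71 for 3, 6 and 12 h in turn.

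No partner was called in any of the 9 comparisons of T-REX with a control or the 9 between controls. Over the 36 partner values of T-REX against a control, log2 changes ran from -0.15 to 0.21 with a median of -0.01. Of their 95% intervals 34 included 0. The bounds reached from -0.36 to 0.48, both of them for SRRT, so a change of SRRT within those bounds could not be told from 0 with 4 libraries an arm. Between controls the 36 partner values ran from -0.29 to 0.23, and 32 of their intervals included 0. Leaving out any single library gave no partner a T-REX call, and gave 1 between controls (SRRT, probe alone against DMSO at 12 h without DMSO replicate 1, adjusted p 0.0134; 0.104 with it). Adding the authors' 2 RUV factors to the fit gave 6 such calls, 4 for SRRT (against probe alone and DMSO at 3 h, light alone at 6 h and DMSO at 12 h) and 2 for PHAX (against probe alone and DMSO at 3 h). That fit also gave 7 partner calls between controls, 6 for SRRT and 1 for NCBP3. It called 1.75 to 26.7% of all genes in the comparisons with T-REX and 1.25 to 22.5% between controls, so nothing particular to the partners is read from these calls.

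**Figure D2:**
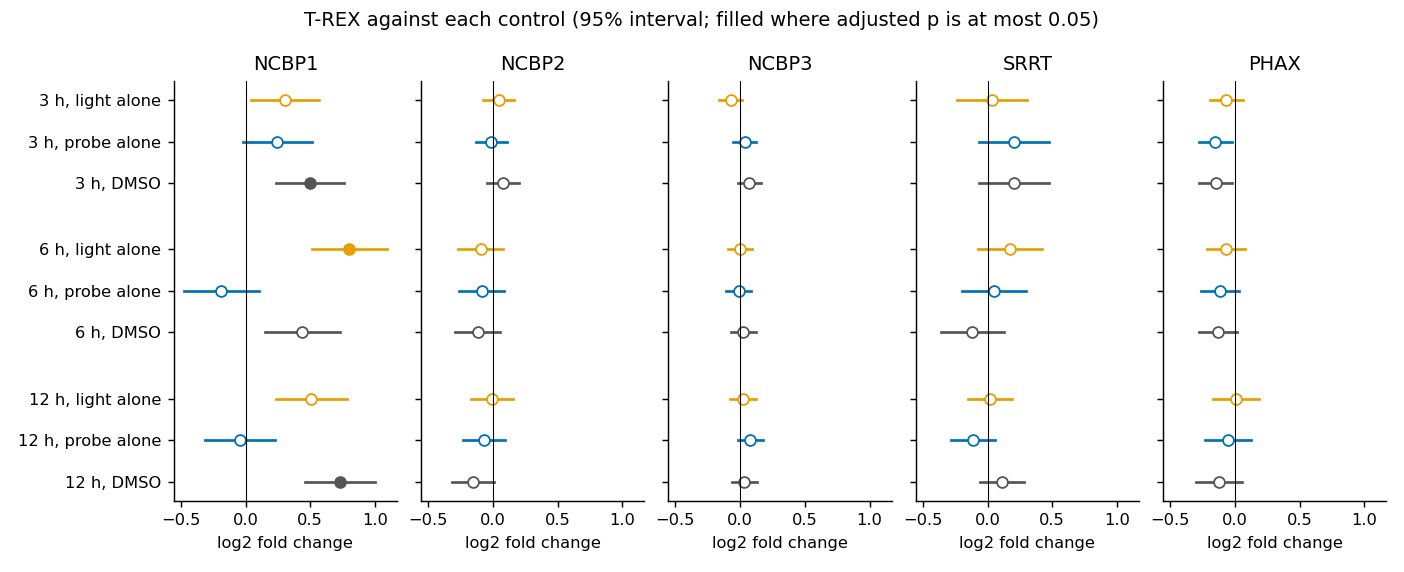
Log2 fold change of T-REX against each control (horizontal axis) for the 5 genes at 3, 6 and 12 h, with 95% intervals, filled circles marking an adjusted p of at most 0.05. The 3 filled circles are all for NCBP1, and the intervals of NCBP3 are the narrowest, within -0.16 to 0.18.

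NCBP2, the subunit that holds the cap, was at 35.0, 34.3, 37.5 and 33.6 CPM in the 3 h T-REX libraries and at 33.7, 34.4, 31.5 and 33.6 CPM in those of DMSO. The groups overlapped, and the log2 change was 0.08 (95% interval -0.04 to 0.20). At 12 h T-REX held 24.6, 27.5, 27.1 and 24.4 CPM and DMSO 30.1, 27.6, 30.7 and 26.9 CPM. All but 1 DMSO library were above all T-REX libraries, and the change was -0.15 (95% interval -0.32 to 0.01, adjusted p 0.211). Across its 9 T-REX comparisons NCBP2 ran from -0.15 to 0.08, against a range for NCBP1 of -0.19 to 0.80.

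NCBP3, the alternative cap-binding subunit, varied least of the 5 between replicates of a group. Its T-REX changes ran from -0.07 to 0.08, with SE of at most 0.05. Between controls its changes ran from -0.05 to 0.14, none of them called. At 12 h the T-REX libraries held 145, 153, 138 and 133 CPM and the DMSO libraries 137, 137, 135 and 147 CPM. These groups overlapped almost fully (log2 change 0.03, 95% interval -0.07 to 0.13).

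SRRT, the link to processing and decay, was the most variable partner. The 3 h T-REX libraries held 101, 119, 163 and 134 CPM, from the lowest to the highest value of that time but for 1 probe-alone library at 97.3 CPM. The 3 h DMSO libraries held 110, 111, 124 and 104 CPM. The log2 change was 0.20 (95% interval -0.07 to 0.47, adjusted p 0.368). At 6 h the light-alone libraries held 85.2, 103, 65.7 and 110 CPM, while the 4 T-REX libraries lay between 99.8 and 105 CPM (log2 change 0.17, 95% interval -0.07 to 0.42). At 12 h T-REX was 0.11 above DMSO (95% interval -0.06 to 0.29).

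PHAX, the snRNA export adaptor, was the partner with the smallest adjusted p in the comparisons of T-REX with a control. The 3 h T-REX libraries held 65.7, 64.9, 55.9 and 57.2 CPM, the probe-alone libraries 69.3, 68.3, 66.6 and 69.1 CPM and the DMSO libraries 69.5, 69.9, 63.4 and 68.1 CPM. All T-REX libraries were below all probe-alone libraries, and 2 of them were below all DMSO libraries. The share of all genes with such a separation was not counted. The log2 changes of -0.15 (against probe alone, 95% interval -0.28 to -0.02, adjusted p 0.193) and -0.15 (against DMSO, -0.27 to -0.02, adjusted p 0.15) were not called. They are the 2 of 36 partner intervals of T-REX against a control that left out 0. Between controls, 4 of 36 partner values had an unadjusted p of 0.05 or less, for NCBP3 and SRRT. In single comparisons of T-REX with a control, 964 to 3957 of all 14685 genes had an unadjusted p of 0.05 or less. At 12 h the change of PHAX against DMSO was -0.12 (95% interval -0.30 to 0.05).

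**Figure D3:**
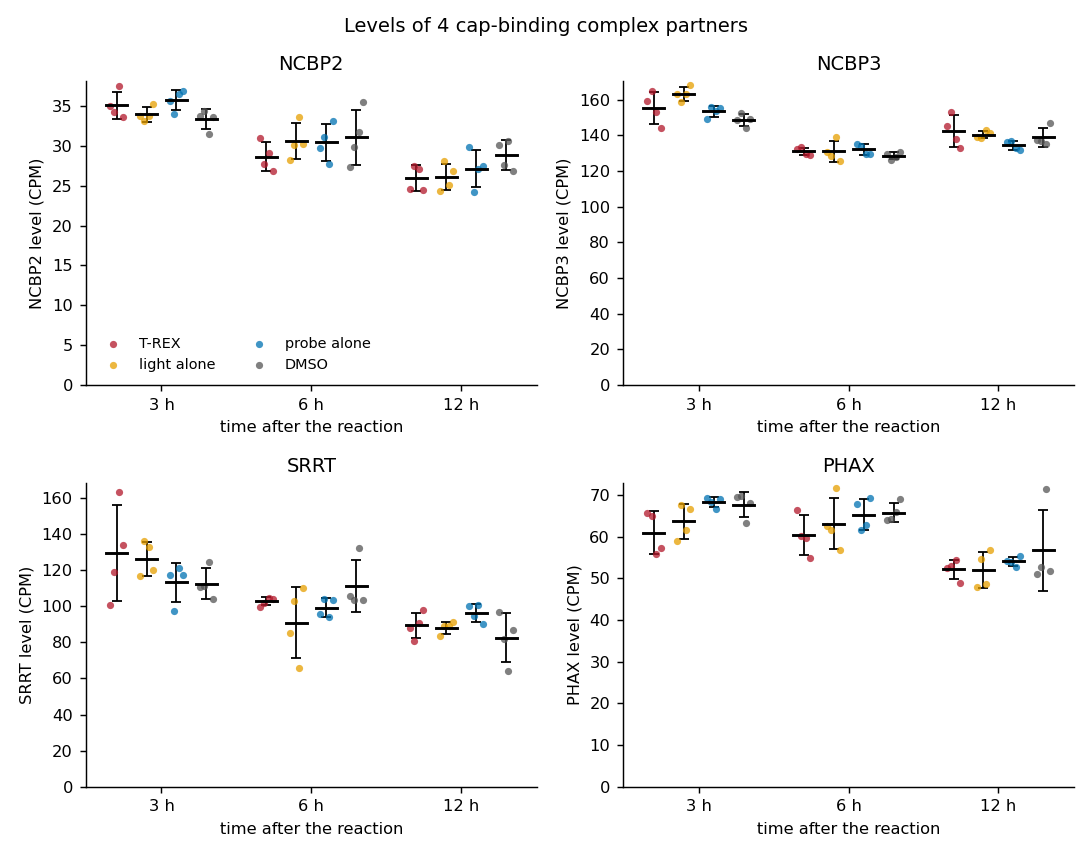
Levels in CPM of NCBP2, NCBP3, SRRT and PHAX by time after the reaction, with 1 point per library, a bar for the mean and error bars for 1 SD (n = 4). The arms overlap at each time for NCBP2 and SRRT, and the levels of all 4 genes are lower at 12 h than at 3 h in every arm mean.

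The second comparison is that of time within an arm, fitted over all 48 libraries. Most values of the set were lower at 12 h than at 3 h: 17 of 20 (5 genes in 4 arms) were called lower and none higher. The 3 that were not called were NCBP1 and SRRT in probe alone and NCBP3 in DMSO, and their estimates were also below 0. The shares of all genes called lower at 12 h were 20.6% for T-REX, 19.0% for light alone, 21.0% for probe alone and 18.4% for DMSO. At 6 h 9 of 20 values were called lower and none higher, and the shares of all genes called lower were 9.80%, 11.0%, 10.5% and 6.97% in the same order. Whether libraries of different times were prepared or sequenced together is not given in the sources used here, so time and any such run cannot be told apart. The DMSO arm, too, had such calls at 12 h, for each gene but NCBP3.

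NCBP2 fell by 0.44 in T-REX (SE 0.07, adjusted p 2.33e-06), 0.38 in light alone, 0.40 in probe alone and 0.21 in DMSO by 12 h on the log2 scale, and was called in all 4 arms. The T-REX libraries went from between 33.6 and 37.5 CPM at 3 h to between 26.9 and 31.0 CPM at 6 h and between 24.4 and 27.5 CPM at 12 h. No 12 h library of an arm reached the lowest 3 h library of that arm. The share of all genes with such a separation was not counted. At 6 h NCBP2 was called lower in T-REX (-0.29, SE 0.07) and probe alone (-0.23, SE 0.07), the latter not without 6 h probe-alone replicate 3 (adjusted p 0.085). The 12 h DMSO call was lost without replicate 2 or 4 of that time (adjusted p up to 0.0658).

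NCBP3 had its lowest level at 6 h. It was then called lower in all 4 arms, by -0.25 in T-REX (SE 0.04, adjusted p 1.23e-05), -0.32 in light alone, -0.22 in probe alone and -0.21 in DMSO. Each 6 h library was below every 3 h library of its own arm, with 144 to 168 CPM over the arms at 3 h and 126 to 139 CPM at 6 h. The share of all genes with such a separation was not counted. At 12 h NCBP3 lay between 132 and 153 CPM, and the changes from 3 h were -0.13 in T-REX, -0.22 in light alone, -0.19 in probe alone and -0.09 in DMSO, the last of them not called (SE 0.04, adjusted p 0.0628). The DMSO value passed without 12 h replicate 4 (adjusted p 0.0233), and the T-REX call at 12 h was lost without 3 h replicate 2 or 12 h replicate 4 (adjusted p up to 0.0738). The difference between 6 and 12 h was not tested.

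PHAX had no call at 6 h and was lower at 12 h. Its 6 h changes were between -0.07 and -0.01 with none called (95% intervals between -0.22 and 0.14). By 12 h it was called lower in all 4 arms, by -0.22 in T-REX (SE 0.08, adjusted p 0.0149), -0.29 in light alone, -0.34 in probe alone and -0.26 in DMSO. The T-REX call was lost without 3 h replicate 1 or 2 or 12 h replicate 4 (adjusted p up to 0.0693). The 12 h DMSO libraries held 51.1, 52.7, 71.4 and 51.7 CPM, of which replicate 3 was above all 4 of that arm's 3 h values.

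**Figure D4:**
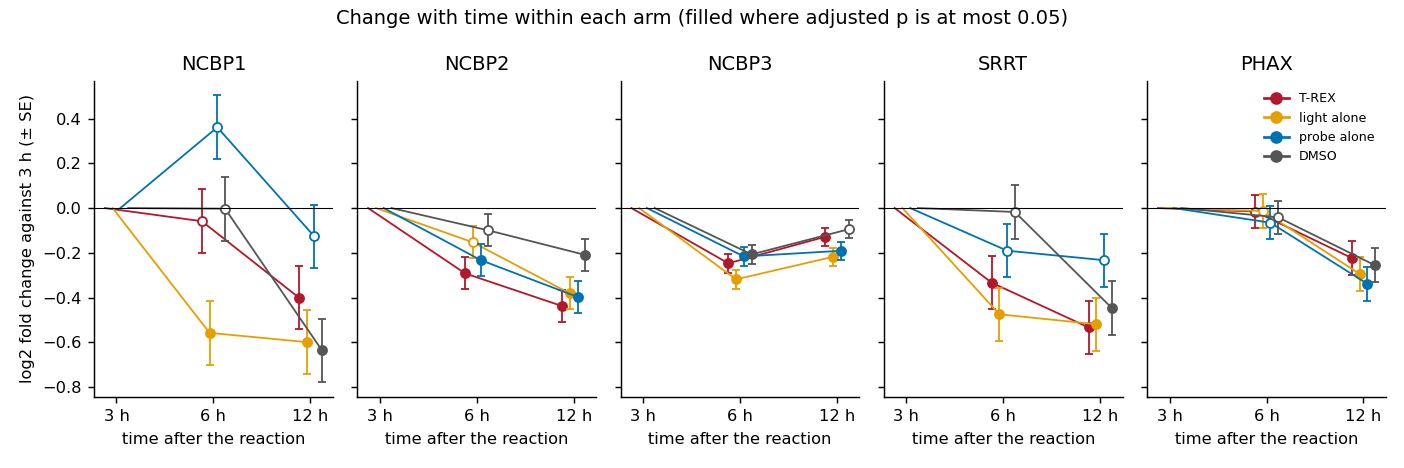
Log2 fold change from 3 h (vertical axis, ± SE) at 6 and 12 h in each arm for the 5 genes, filled where the adjusted p is at most 0.05. NCBP3 has its lowest point at 6 h in each arm, NCBP2 and PHAX at 12 h, and the arms spread widest for NCBP1.

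SRRT fell by 0.53 in T-REX (SE 0.12, adjusted p 0.000379), 0.52 in light alone and 0.45 in DMSO by 12 h, each called. In probe alone the change was -0.23 (SE 0.12, adjusted p 0.113). At 6 h it was called in light alone (-0.47, SE 0.12) and T-REX (-0.33, SE 0.12, adjusted p 0.0376). The T-REX call at 6 h was lost without 3 h T-REX replicate 3 or 4 or any 6 h T-REX replicate, with adjusted p up to 0.228.

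NCBP1 fell in 3 arms by 12 h: -0.40 in T-REX (SE 0.14, adjusted p 0.0225), -0.60 in light alone and -0.64 in DMSO. In probe alone the change was -0.13 (SE 0.14, adjusted p 0.504). The T-REX call was lost without 3 h replicate 1 or 12 h replicate 2 or 3 (adjusted p up to 0.111). At 6 h NCBP1 was called only in light alone (-0.56, SE 0.14, adjusted p 0.00351), while probe alone was at 0.36 (95% interval 0.07 to 0.65, adjusted p 0.0652), a value that passed without 3 h T-REX replicate 4 or 6 h probe-alone replicate 2 (adjusted p down to 0.0236). In DMSO the 6 h change was -0.00282 (SE 0.14).

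Whether the T-REX difference itself changed with time was tested as an interaction. None of the 30 values (5 genes, 3 controls, 6 h and 12 h against 3 h) was called, and 3 had an unadjusted p of 0.05 or less. Between 671 and 2259 of all 14685 genes had such a p in a single one of these tests. Nothing particular to the 5 genes is read from the 3. Few genes of any kind were called in these tests: 0% and 0.0204% at 6 and 12 h against light alone, 0% and 0.0681% against probe alone, and 0.0136% and 0.00681% against DMSO. For NCBP1 the values at 6 h were 0.50 against light alone (95% interval 0.09 to 0.91) and -0.42 against probe alone (-0.83 to -0.01), with adjusted p of 0.939 and 0.602. The largest partner value was -0.32 for SRRT against DMSO at 6 h (95% interval -0.66 to 0.02). The one partner interval that left out 0 was that of NCBP2 against DMSO at 12 h, with -0.23 (95% interval -0.43 to -0.02, adjusted p 0.444).

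The relation of the NCBP1 level, the sum of plasmid and gene, to the partners was examined over the 48 libraries after removing the mean of each arm and time. Pearson's r was -0.05 for NCBP2, 0.02 for NCBP3, -0.08 for SRRT and -0.01 for PHAX. Spearman's rho was -0.14, -0.07, -0.11 and -0.02. The permutation p (100000 resamples within arm and time, two-sided) was 0.722 or more for r and 0.427 or more for rho, and 0.919 or more after Benjamini-Hochberg adjustment over the 4 genes. Without the 2 libraries farthest from the median NCBP1 level, r ran from -0.11 to 0.08. Within single time points, 16 libraries each, r lay between -0.31 and 0.34.

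Centred on the mean of each time point, so that differences between arms stay in, the strongest relations among the 5 genes were -0.54 between SRRT and PHAX and 0.50 between NCBP2 and PHAX (Pearson's r over 48 libraries, a description over libraries that share depth, preparation and groups). The genes most like SRRT by this measure, among 10115, were PCNT (0.93), FBRS (0.93) and SMARCA4 (0.92). For PHAX they were SEPTIN7 (0.76), CHORDC1 (0.76) and SPTSSA (0.75), and for NCBP2 HNRNPD (0.73), MT-ATP6 (0.68) and RNF130 (0.67). NCBP3 had weaker neighbours, with ZNF431 (0.59), USF3 (0.57) and SEPTIN7P2 (0.56). NCBP1 was most like a gene with no symbol here, ENSG00000245025 (0.89), and like LRRTM2 (0.87) and FBXW7 (0.85).

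The rest of the pathway was followed in a list of 43 genes in 7 groups, of which 42 were counted (NCBP2L was not listed). Against T-REX controls these genes were called in 3 of 9 comparisons, and each call was lower in T-REX. Against DMSO 4 of 42 were called at 3 h (median log2 change of the list -0.05, of all genes 0.03) and 5 of 42 at 12 h (list -0.04, all genes 0.00). Against light alone at 12 h it was 1 of 42. The background shares are those given above for these comparisons, 5.99%, 10.9% and 1.29% of all genes in the same order, and nothing particular to the list is read from these counts.

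EIF4G2, a translation initiation factor that lacks the EIF4E-binding site of EIF4G1, was the one gene of the list called against more than 1 control at a time point. At 12 h it was at -0.29 against DMSO (SE 0.05, adjusted p 0.000226) and -0.19 against light alone (SE 0.05, adjusted p 0.0315). It was also called at 3 h against DMSO (-0.20, SE 0.05, adjusted p 0.019). EIF4G2 was not called against probe alone at 12 h, nor against light alone or probe alone at 3 h. Other genes of cap-dependent translation, POLDIP3 (0.15, SE 0.06) and RPS6KB1, the gene of S6 kinase (-0.07, SE 0.06), were not called against DMSO at 12 h.

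Among other cap-binding proteins EIF4E, the cytoplasmic cap-binding factor, was lower in T-REX than in DMSO at 12 h (-0.23, SE 0.07, adjusted p 0.0383) and at 3 h (-0.21, SE 0.06, adjusted p 0.0496). Its 12 h change was -0.06 against light alone (adjusted p 0.806) and 0.08 against probe alone (adjusted p 0.749), neither called. At 3 h EIF4E was at -0.165 against light alone (adjusted p 0.21) and -0.173 against probe alone (adjusted p 0.141), again not called. Against DMSO at 12 h NCBP2AS2, a protein-coding neighbour of NCBP2, was at -0.20 (SE 0.16) and EIF4E2 at -0.06 (SE 0.08), neither called. None of the 6 capping enzymes was called, among them CMTR1 (0.17, SE 0.06, adjusted p 0.0603), which methylates the first transcribed nucleotide, RNMT (-0.12, SE 0.06), the cap methyltransferase, and CMTR2 (-0.06, SE 0.09).

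Of the 14 adaptors of the complex, SLBP, which binds the stem-loop of histone mRNA (-0.27, SE 0.08, adjusted p 0.0372), and HNRNPC, which measures transcript length for the choice of export route (-0.23, SE 0.05, adjusted p 0.00253), were lower in T-REX than in DMSO at 12 h. CTIF, which joins the complex to the ribosome, was at 0.19 (SE 0.13). Of 6 genes for snRNA export and decay, RAN, the GTPase that drives nuclear transport, was lower (-0.28, SE 0.05, adjusted p 0.00115). XPO1, the exportin of snRNA (-0.14, SE 0.05, adjusted p 0.0698), and RBM7 (-0.13, SE 0.08) were not called. SLBP, HNRNPC and RAN were not called at 12 h against light alone or probe alone.

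The importins were not called at 12 h: KPNA2 was at -0.12 (SE 0.05, adjusted p 0.0992), KPNB1 at 0.02 (SE 0.05) and SNUPN, which carries capped snRNPs back to the nucleus, at 0.15 (SE 0.18). KPNA2 was lower at 3 h against DMSO (-0.24, SE 0.06, adjusted p 0.0134). The decapping genes DCP1A (0.13, SE 0.05), NUDT16 (0.06, SE 0.10) and DCP2 (-0.05, SE 0.06) were not called at 12 h, and DCP2, the decapping enzyme, was lower at 3 h against DMSO (-0.17, SE 0.05, adjusted p 0.0343). Neither KPNA2 nor DCP2 was called at 3 h against light alone or probe alone.

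The control arms bear on these counts. Between probe alone and DMSO at 12 h 4 of 42 were called, also all lower: EIF4G2, RAN, EIF4E and KPNA2 (background 5.11%). In the other 8 control comparisons none was. Since both comparisons use the same DMSO libraries, their calls are not independent of each other.

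**Figure D5:**
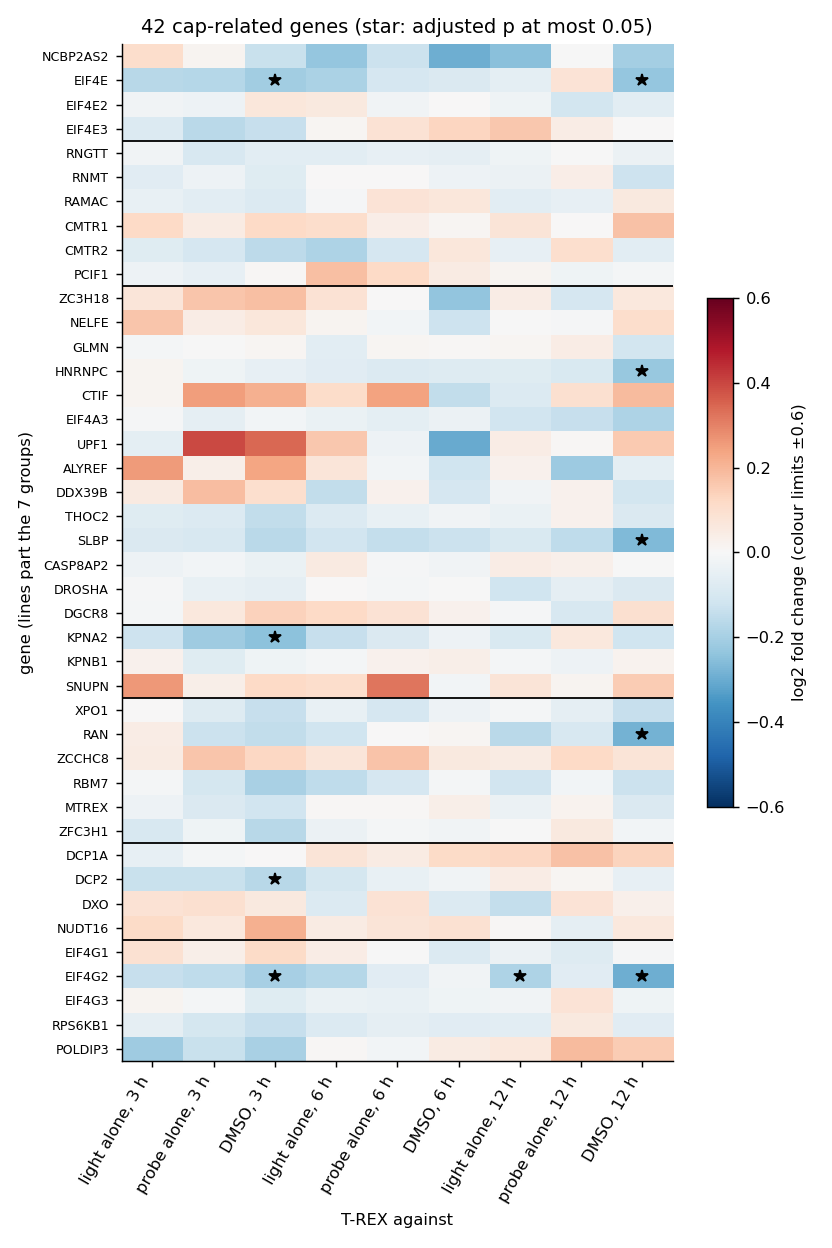
Log2 fold change (colour, limits ±0.6) of T-REX against each control at 3, 6 and 12 h for 42 genes of capping, cap binding, export and decapping, with a star where the adjusted p is at most 0.05. All 10 stars are in blue cells, and 9 of them are in the columns against DMSO.

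With time the list moved more than with T-REX. At 12 h against 3 h between 18 and 23 of 42 genes were called lower and 4 to 6 higher in an arm, beside 18.4 to 21.0% of all genes called lower and 20.4 to 21.3% called higher. The median change of the list was between -0.22 and -0.15 in the 4 arms, and that of all genes between -0.01 and 0.01. In all 4 arms 15 genes were called lower and 3 higher, the latter being XPO1, EIF4E3 and CMTR2, named after their values were seen. At 6 h 5 to 10 were called lower and 2 to 6 higher, beside 6.97 to 11.0% and 9.05 to 14.3% of all genes. In all 4 arms XPO1 was then higher, and DGCR8, EIF4A3 and RPS6KB1 were lower. The share of all genes called in one direction in all 4 arms was not counted at either time. Nothing particular to the list is therefore read from calls shared by the arms. No gene of the list was called in the interaction tests.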

How the data were processed

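RNA of 48 HEK293T libraries (4 arms, 3 times, 4 libraries each) was sequenced by the authors from rRNA-depleted, stranded libraries. The authors deposited raw counts per gene at each time, with log2 CPM values and scores from a RUV transformation made from them. Main results use the deposited counts; the deposited log2 values and RUV scores and factors served as alternatives. For this RNA-seq the authors name bcl2fastq for demultiplexing, then cutadapt, TopHat and Cufflinks, and Salmon for the transcript counts of their splicing analysis. The tool that made the deposited counts per gene and the genome build are not given in the sources used here. Of 14685 identifiers 14648 matched a symbol. Columns not matched to a sample numbered 0.

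Counts were fitted with edgeR 4.0.16 (TMM, default expression filter, which removed 0 genes, robust quasi-likelihood test), 16 libraries per time for differences between arms and 48 for time and interactions. P-values were adjusted by Benjamini-Hochberg over all genes in each comparison. Intervals are 95%. Levels of the 5 genes are TMM-scaled CPM over 48 libraries, and those of the cell markers are CPM without TMM scaling. DESeq2, limma, RLE scaling, filters, and leaving out each library were tried. Scripts were tested on simulated data. The 5 genes, the list of 43 and the rule for naming its genes (called against at least 2 controls at a time, or up to 3 per group with the largest change against DMSO at 12 h) were chosen with earlier results of these data known. Library totals were at least 23952455 counts. The labels give a repeat number but do not say whether libraries of equal number belong together. Correlations of deviations between such libraries ran from -0.636 to 0.573. They were not treated as pairs in the main fits, and a replicate block was tried as an alternative.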

Additional observations from a re-analysis of the deposited data

Results flagged for a closer look

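In 60 sets of 4 libraries (5 genes, 4 arms, 3 times), 4 held a library set apart from the other 3, its gap to the nearest divided by the range exceeding Dixon's 95% critical value; chance flags about 1 in 20 such sets. NCBP1 was lowest in replicate 2 of probe alone at 6 h, at 64957 CPM against 87925 to 90361 CPM in the others. It was highest in replicate 4 of probe alone at 12 h, at 74043 CPM against 52800 to 56345 CPM. SRRT was highest in replicate 3 of DMSO at 6 h, at 132 CPM against 103 to 105 CPM, and PHAX in replicate 3 of DMSO at 12 h, at 71.4 CPM against 51.1 to 52.7 CPM. Their part in the results was not tested beyond leaving out each library.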

How the results depend on the processing

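Among T-REX comparisons 1 of 15 values of the 5 genes was called at each time, and between controls 0, 1 and 1 at 3, 6 and 12 h. With any 1 library left out the T-REX counts ranged from 0 to 1 at 3 h, 0 to 1 at 6 h and 1 to 2 at 12 h, the control counts were 0 at 3 h and ranged from 0 to 1 at 6 h and 1 to 2 at 12 h, the 26 time calls ranged from 24 to 27, and the interactions stayed at 0. Under another tool the T-REX and control counts moved through NCBP1: DESeq2 gave 2 T-REX calls at 12 h and 2 control calls at both 6 and 12 h, limma on the deposited log2 CPM gave 2 and 2 at 12 h, and fitting only the 2 groups compared gave 0 T-REX calls at 3 h and 2 at 6 h. With the authors' RUV factors as covariates T-REX had 5, 3 and 3 calls and the controls 3, 5 and 4 at 3, 6 and 12 h. Without replicate 4 of every arm, chosen after seeing the data, both counts were 2 at 12 h. The cause of these changes was not tested.

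RLE scaling, both filters on low counts and leaving NCBP1 out of the library sizes kept every T-REX, control and interaction count. No called value changed sign under any alternative. Time counts were 24 to 27 and interaction counts 0 throughout. With only the 2 groups compared, 5 time calls were lost (SRRT at 6 h in T-REX and light alone, NCBP3 at 12 h in T-REX, NCBP2 and PHAX at 12 h in DMSO) and 3 gained in probe alone (SRRT at 6 and 12 h, and NCBP1 at 6 h, which was higher). DESeq2 also called NCBP3 at 12 h in DMSO, and the filter at a mean of 100 counts called NCBP1 at 6 h in probe alone. The 4 correlations of NCBP1 lay between -0.22 and 0.23 over 46 to 48 libraries and between -0.31 and 0.34 within single times, with none called.

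With a replicate block the T-REX counts were 1, 2 and 2 and the control counts 0, 2 and 2 at 3, 6 and 12 h, and time stayed at 26. The added calls were all for NCBP1. Same-numbered libraries did not deviate together in every pair: 12 of 24 pairs at 3 h, 11 at 6 h and 8 at 12 h had a correlation over 0.1. At 3, 6 and 12 h in turn, 4, 9 and 2 of 16 libraries were most like one of their own number. How many would be so without pairing was not worked out, so no pairing is read from these counts. With 4 libraries an arm, changes of the partners inside the intervals given could not be told from 0.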

Other observations

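NCBP1 was highest in replicate 4 of all 4 arms at 6 h and again in all 4 arms at 12 h, and in none at 3 h. At 12 h those libraries held 63933 CPM (T-REX), 49371 CPM (light alone), 74043 CPM (probe alone) and 40599 CPM (DMSO). NCBP2 was highest in replicate 4 in 2 arms at 6 h and in 0 at 12 h, NCBP3 in 1 and 1, SRRT in 1 and 2, and PHAX in 2 and 2. The pattern was noticed in the data. Without replicate 4 of every arm, a setting chosen after seeing the data, T-REX at 12 h had 2 calls among the 5 genes, against DMSO and light alone, both for NCBP1.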
